A study of Drosophila melanogaster with 14 samples.

Results

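The late part of Drosophila melanogaster embryogenesis was examined in 4 small RNA libraries of stages 6 and 7, labelled 1160 and 1300 min, set against 2 libraries of stage 5, labelled 930 min. They were chosen by stage, with earlier results of these data known. They make up 6 of the 14 libraries of a time course that runs over 7 stages with 2 libraries each. Strain, genotype, any treatment and the point from which the minutes were counted are unstated in the labels. Nothing shows that the pair of libraries at a stage are separate collections, so p-values measure only the spread between these libraries, which may be technical. For every mature miRNA arm, assigned reads were counted, and levels are given as CPM, counts scaled by library total and TMM factor. Total counts were 17462 and 43538 in stage 6, 72507 and 66029 in stage 7, and 32538 and 31330 in stage 5. A single read in the shallowest library was worth 57.3 CPM before TMM scaling. The number of arms with a count in these 6 libraries was 226 of the 466 listed, and 85 were abundant enough to test over the whole time course.

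A miRNA is cut from a hairpin precursor by Drosha in the nucleus and Dicer-1 in the cytoplasm, leaving a duplex of a 5p and a 3p strand. Argonaute normally keeps the guide strand and the other is degraded, so the ratio of the arms of a hairpin differs between miRNAs by orders of magnitude. In the late fly embryo muscles, neurons, gut and cuticle complete their differentiation before hatching. Among miRNAs active then, bantam promotes growth and blocks cell death, miR-8 acts in epithelia and in insulin signalling, miR-10 lies in the Antennapedia Hox cluster, and miR-124 is a marker of neurons. Whole embryos were measured, so a change in the number of cells of a type and a change in RNA per cell cannot be told apart.

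Of the 6 libraries, stage 7 replicate 2 stood apart from its partner, and the main results are given with and without it. It had been singled out beforehand from these same counts, so the values that follow describe it and are no independent evidence. Across arms, log2 CPM of the stage 7 pair correlated at r = 0.923, while the pairs of stage 6 and stage 5 each had r = 0.966 (a description over arms that share library and depth). The chi-square of the pair's counts per degree of freedom was 108 in stage 7, 10.1 in stage 6 and 9.63 in stage 5. Stage 7 replicate 2 lay outside the range of the other 3 late libraries in 60 of 85 arms, 38 above and 22 below, and the other late libraries in 25 to 50 arms. It was above them in 6 of 7 arms of the miR-309 cluster and 5 of 5 arms of the miR-310 cluster, clusters that are abundant in the early embryo. In the miR-310 cluster, miR-310-3p, miR-311-5p and miR-313-3p had only 4, 5 and 4 counts in that library, so their order is uncertain. The mean correlation of stage 7 replicate 2 with the libraries of stages 1 to 3 was 0.640, against 0.472 to 0.537 in the other late libraries and 0.558 and 0.614 in stage 5. Its part in the results was tested only by leaving it out.

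No miRNA arm passed the test in stages 6 and 7 against stage 5, although miR-957-3p had a fitted level 7.28-fold that of stage 5. By edgeR's quasi-likelihood test with Benjamini-Hochberg adjustment over the 85 arms, 0 were higher (0%) and 0 lower (0%) at an adjusted p under 0.05. At an unadjusted p under 0.05 there were 8 of the 85 arms, 5 higher and 3 lower. With no change in any arm, a share of about 0.05 would be expected there. DESeq2 called 2 higher (miR-957-3p and miR-14-3p) and 0 lower. The arm nearest the threshold was miR-957-3p, which was abundant enough to test only through its late libraries, where it is high. Without stage 7 replicate 2, miR-957-3p was the only arm called of 97 tested (1.03% higher, 0% lower). Over all arms the log2 fold change had a median of 0.19, with quartiles of -0.25 and 0.54 and extremes of -1.77 and 2.86. Leaving out that library gave a median of -0.039, and 14 arms changed sign.

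The precision limits what this shows. Over the 85 arms the log2 fold change had a median SE of 0.521, and the 95% interval lay within 1 log2 unit of 0 on either side for 13 of 85 arms (15.3%). For these a 2-fold change in either direction lies outside the interval. Among the 13 arms with a mean of at least 10000 CPM, 8 had such an interval. An absolute log2 fold change above 1 was fitted for 15 arms, none past the threshold. All 4 late libraries lay above both of stage 5 in 12 arms (14.1%) and below both in 7 (8.24%).

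**Figure D1:**
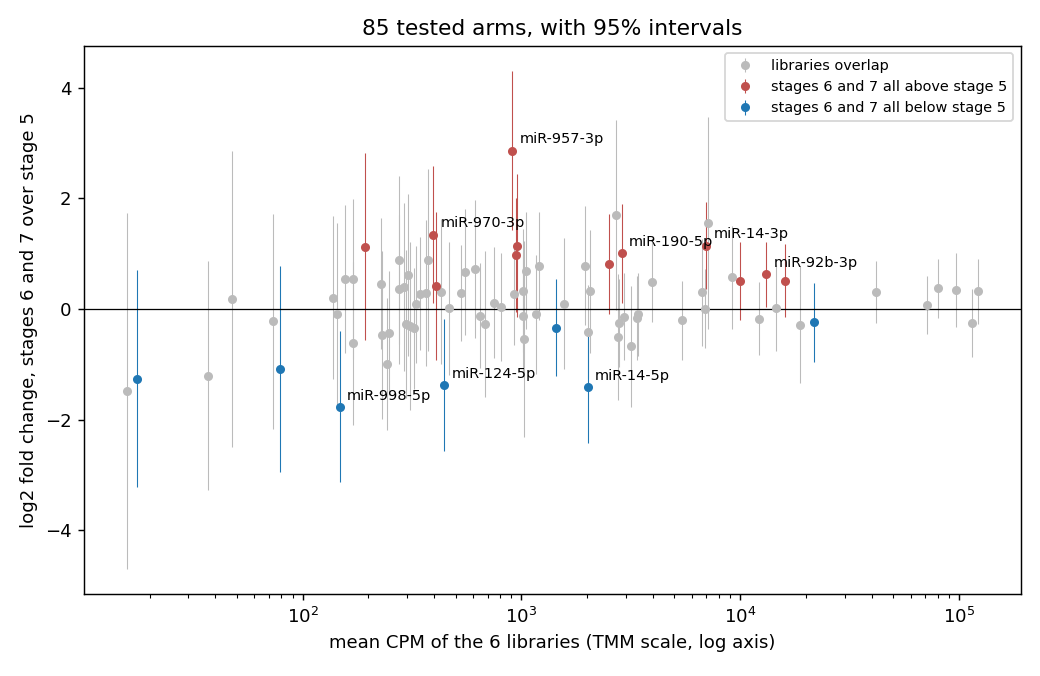
Log2 fold change of stages 6 and 7 against stage 5 (vertical axis) against mean CPM of the 6 libraries on a log axis, for 85 arms, with 95% intervals as bars. Arms with all 4 late libraries above both of stage 5 are red (12 arms), those with all below are blue (7 arms) and the others grey. Most intervals of the less abundant arms cross 0, and miR-957-3p is the highest point at 2.86.

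As a measure of the size of the step, the other steps of the time course were taken from the same fit. In stage 2 against 1, 15 arms were called (17.6%), in stage 3 against 2, 0 (0%), in stage 4 against 3, 30 (35.3%), and in stage 5 against 4, 12 (14.1%). The median absolute log2 fold change was 1.27 in stage 4 against 3 and 0.881 in stage 5 against 4. It was 0.434 in stage 6 against 5, 0.423 in stage 7 against 6 and 0.395 for stages 6 and 7 against 5. Whether the late step was smaller in size was not tested. The late step (stages 6 and 7 against 5) and that of stage 5 against 4 share the libraries of stage 5. A test of the difference between their signed log2 fold changes, which does not compare sizes, called 0 of 85 arms (0%). The lowest adjusted p of that test in edgeR was 0.102, for miR-92b-3p. Its log2 fold change was -1.47 in stage 5 against 4 and 0.63 in the late step, which did not pass by itself. Stage 5 enters the steps with opposite sign, so a turn of direction is not shown.

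The arm with the lowest p was a 3p arm of the hairpin mir-957, which lies on chromosome 3L at 22518196 to 22518291 of dm6, minus strand, in no protein-coding gene of that strand. miR-957-3p had 1989.6 and 980.5 CPM in stage 6 and 1508 and 622 CPM in stage 7, against 133 and 205 CPM in stage 5. These rest on 46 and 57 counts in stage 6 and 150 and 48 counts in stage 7, against only 6 and 10 counts in stage 5. All 4 late libraries were above both of stage 5, and the lowest late value was that of stage 7 replicate 2. The means were 1275 ± 599.6 CPM in stages 6 and 7 (SD, n = 4) and 169 ± 50.99 CPM in stage 5 (SD, n = 2), a log2 fold change of 2.86 ± 0.679 (SE; 95% interval 1.42 to 4.30). The edgeR adjusted p was 0.0554, short of the threshold, and 0.0132 without stage 7 replicate 2, where the log2 fold change was 3.05. The adjusted p passed in 4 of 13 alternatives and ran from 0.0126 to 0.791, while the log2 fold change stayed between 2.37 and 3.24. Earlier the arm had a mean of 5.89 CPM in stage 4 and no count in stages 1 to 3. It also belongs to the list of late-onset arms described below, drawn up from earlier results of these data. Its direction is therefore no independent evidence.

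Among the other arms with an unadjusted p under 0.05 that were higher, miR-190-5p comes from an intron of rhea, the gene of talin, a protein that links integrins to the cytoskeleton. mir-190 lies on 3L at 8571799 to 8571898, plus strand. miR-190-5p had 3417 and 2752 CPM in stage 6 and 3447 and 4247 CPM in stage 7, against 1547 and 1863 CPM in stage 5. Late libraries were all above stage 5, with stage 7 replicate 2 the highest. The log2 fold change was 1.01 ± 0.428 (edgeR adjusted p 0.386). When stage 7 replicate 2 was left out it was 0.87, with an edgeR adjusted p of 0.488. miR-970-3p, from an intron of Tomosyn on X at 12636336 to 12636430, plus strand, had 649 and 568 CPM in stage 6 and 523 and 259 CPM in stage 7, against 133 and 246 CPM in stage 5. Its stage 5 values rest on 6 and 12 counts. The lowest late value was again in stage 7 replicate 2, from 20 counts, just above the higher stage 5 library. Its log2 fold change was 1.35 ± 0.594 (edgeR adjusted p 0.386), and 1.47 without that library.

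miR-92b belongs to a family that maintains neuroblasts, the neural stem cells of the fly, and its hairpin lies in the 3′ UTR of jigr1 on 3R at 25651398 to 25651497, plus strand. miR-92b-3p had 11202 and 14828 CPM in stage 6 and 14975 and 18569 CPM in stage 7, against 8754 and 10339.7 CPM in stage 5. The groups did not overlap, and stage 7 replicate 2 was the highest. Its log2 fold change was 0.63 ± 0.2802 (edgeR adjusted p 0.386), and 0.48 without stage 7 replicate 2. Over the time course this arm had been far more abundant, with means of 164611, 157427, 150019 and 26556 CPM in stages 1 to 4. Its relative miR-92a-3p, from an intron of the same host, had 129.8 and 447 CPM in stage 6 and 452 and 427 CPM in stage 7, against 287 and 328 CPM in stage 5. Those groups overlapped, and the counting does not say how reads shared by the near-identical pair were assigned.

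The lower arms with an unadjusted p under 0.05 included miR-124-5p and miR-998-5p. miR-124-5p is the passenger strand of the neuronal miR-124, whose hairpin lies on 2L at 17566370 to 17566469, plus strand, in no protein-coding gene of that strand. It had 346 and 413 CPM in stage 6 and 151 and 272 CPM in stage 7, against 951 and 532 CPM in stage 5. All late libraries were below both of stage 5, the lowest being stage 7 replicate 1. The log2 fold change was -1.37 ± 0.572 (edgeR adjusted p 0.386), and -1.64 without stage 7 replicate 2. In stage 4 its mean had been 1615 CPM. The guide strand miR-124-3p was too rare to test, with 26 late counts against 9 in stage 5. Its ratio of late to stage 5 shares was 0.925, with a counting interval of 0.42 to 2.24 that leaves out the spread between libraries. Whether miR-124-3p fell as well cannot be told from so few counts. In stage 5 it had 4 and 5 counts, fewer than the 43 and 26 counts of miR-124-5p. miR-998-5p comes from an intron of E2f1, the cell cycle transcription factor, on 3R at 21621879 to 21622021, minus strand. Levels of miR-998-5p were 86.5 and 86.01 CPM in stage 6 and 60.3 and 90.6 CPM in stage 7, against 398 and 164 CPM in stage 5. These rest on 2 and 5 counts in stage 6 and 6 and 7 counts in stage 7, against 18 and 8 counts in stage 5, so the late values are not told apart at this depth. All were below stage 5, whose pair differed from each other. The log2 fold change was -1.77 ± 0.6504 (edgeR adjusted p 0.291), and -1.94 without stage 7 replicate 2. miR-11-3p, from the same host and known to restrain pro-apoptotic targets of E2F, was 13798 and 17012 CPM in stage 6 and 13829.5 and 26299 CPM in stage 7, against 11937 and 12674 CPM in stage 5. It was above stage 5 in all late libraries, with a log2 fold change of 0.52 ± 0.319 (edgeR adjusted p 0.651), but 0.18 without stage 7 replicate 2, its highest library (adjusted p 0.902).

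**Figure D2:**
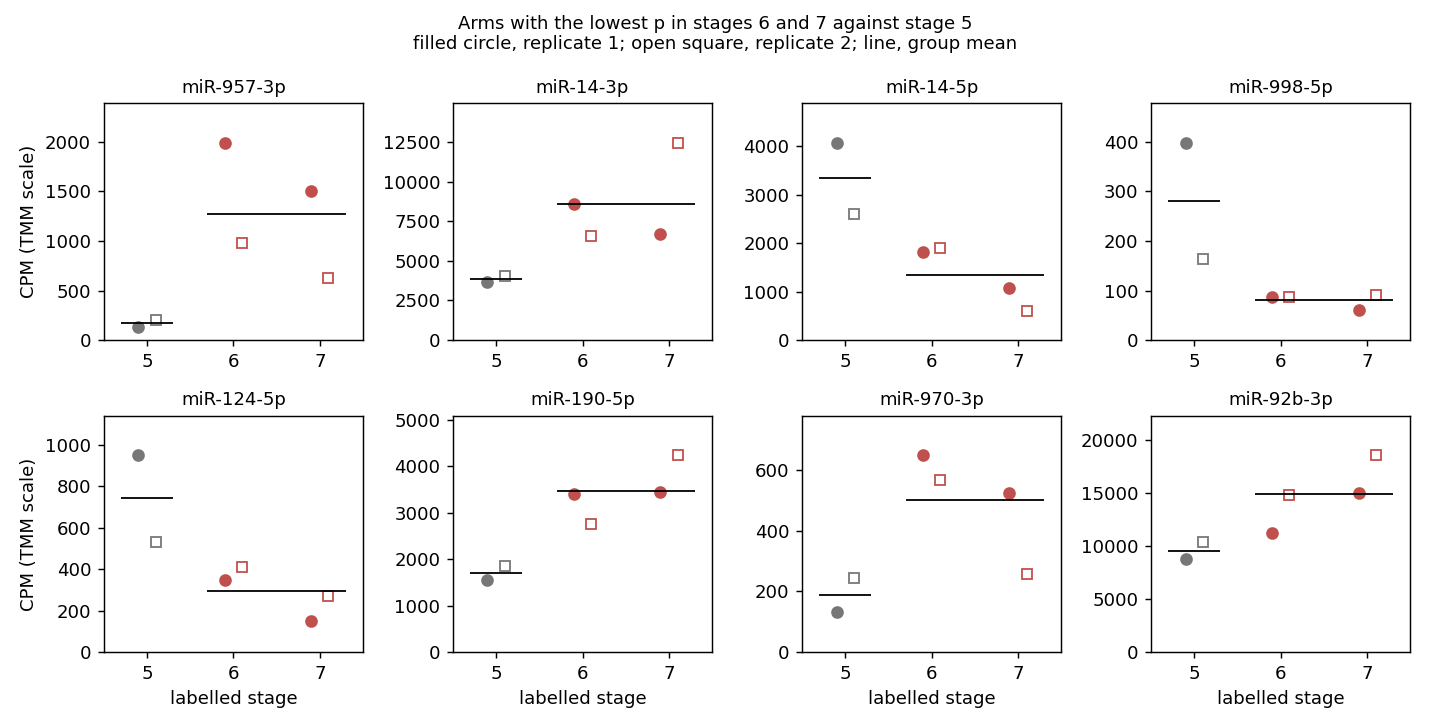
CPM in each of the 6 libraries for the 8 arms with an unadjusted p under 0.05, 1 panel per arm, with filled circles for replicate 1, open squares for replicate 2 and a line at each group mean, stages 6 and 7 in red and stage 5 in grey. In each of the 8 panels the 4 late libraries lie on the same side of both stage 5 libraries. The arms were picked by p in this same comparison, so that separation is no further evidence. Over the 85 tested arms it held for 12 above (14.1%) and 7 below (8.24%). Stage 7 replicate 2 is the highest for miR-14-3p and the lowest late value for miR-957-3p.

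The balance of the arms of mir-14 changed toward the 3p arm. miR-14 suppresses cell death and regulates fat metabolism and ecdysone signalling in flies, and its hairpin lies on 2R at 9553762 to 9553824, plus strand, in no protein-coding gene of that strand. The 3p arm, the strand known as miR-14, had 8564 and 6588 CPM in stage 6 and 6714 and 12457 CPM in stage 7, against 3647 and 4034 CPM in stage 5. The 5p arm had 1817 and 1892 CPM in stage 6 and 1075 and 609 CPM in stage 7, against 4067 and 2600.3 CPM in stage 5. Both separated the groups without overlap, the 3p arm above stage 5 and the 5p arm below. Taken singly, neither passed the edgeR threshold: the log2 fold change was 1.15 ± 0.376 for the 3p arm (adjusted p 0.247) and -1.41 ± 0.4796 for the 5p arm (adjusted p 0.247). With stage 7 replicate 2 left out these were 0.83 and -1.27.

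In the late libraries the 5p arm was a minority of the mir-14 counts, and in stage 5 the shares were closer to even. The 5p share was 17.5% (42 of 240 counts; exact 95% binomial interval 12.9% to 22.9%) and 22.3% (110 of 493; 18.7% to 26.2%) in stage 6. In stage 7 it was 13.8% (107 of 775; 11.5% to 16.4%) and 4.66% (47 of 1009; 3.44% to 6.15%). In stage 5 it was 52.7% (184 of 349; 47.3% to 58.1%) and 39.2% (127 of 324; 33.8% to 44.7%). No late interval overlapped a stage 5 interval, although the intervals cover counting error only. The mean share was 14.6% ± 7.47 in stages 6 and 7 (SD, n = 4) and 46.0% ± 9.56 in stage 5 (SD, n = 2).

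A test of unequal change of the arms of a hairpin (edgeR's diffSpliceDGE), chosen after the data were seen, was run over the 15 hairpins with both arms tested. mir-14 was the 1 hairpin called (6.67%), with a log2 change of the 5p to 3p ratio of -2.56 ± 0.565 (SE) and an adjusted p of 0.00211. Against stage 5, the edgeR adjusted p of mir-14 was 0.00107 for stage 7 alone and 0.239 for stage 6 alone, and stage 7 against stage 6 gave 0.383. Without stage 7 replicate 2 the change was -2.10 (edgeR adjusted p 0.0412, 1 of 20 hairpins called, 5%). The call was lost without stage 5 replicate 1, the library with the highest 5p share, where the change was -2.08 (edgeR adjusted p 0.263 over 21 hairpins). Over the time course the mean 5p share was 13.0%, 3.37% and 36.3% in stages 2 to 4, and 46.0%, 19.9% and 9.23% in stages 5 to 7. It was highest in stage 5, the stage that the late libraries are set against.

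**Figure D3:**
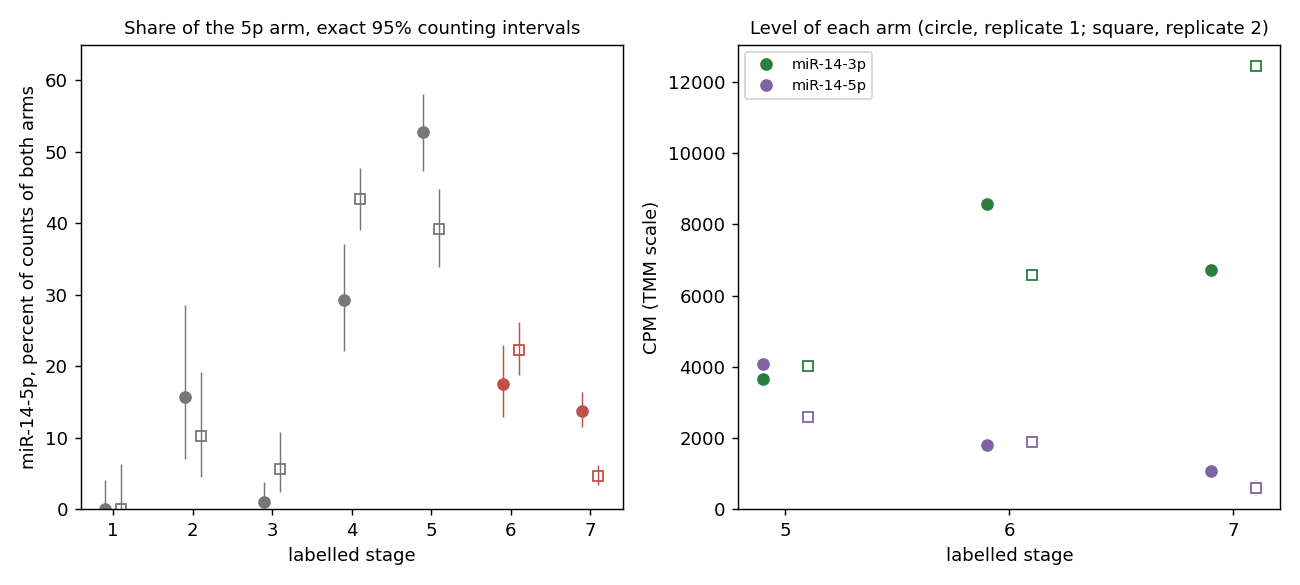
Left, percent of mir-14 counts on the 5p arm in 14 libraries by stage, with exact 95% counting intervals; right, CPM of the 3p and 5p arms in the libraries of stages 5, 6 and 7. The 5p share peaks in stage 5 at 39.2% and 52.7% and is 4.66% to 22.3% in the late libraries, where the 3p arm is above its stage 5 values and the 5p arm below.

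Some other hairpins had smaller differences of the same kind between these libraries. None passed in the main fit, so a shift is not shown for them. The share of the minor arm was below both stage 5 values in all 4 late libraries in 6 of 15 hairpins (40%), mir-14 included, and above in 2 (13.3%). For bantam the 5p share was 2.35% and 2.55% in stage 6 and 1.96% and 0.872% in stage 7, against 4.11% and 3.42% in stage 5. For mir-11 the 5p share was 8.86% and 7.14% in stage 6 and 9.95% and 4.11% in stage 7, against 12.9% and 11.1% in stage 5. For mir-8 the 5p share was 2.03% and 2.78% in stage 6 and 2.26% and 1.902% in stage 7, against 3.86% and 4.17% in stage 5. In these 3 hairpins the discarded strand took less of the total in every late library. The edgeR adjusted p of unequal change was 0.315, 0.315 and 0.333 for bantam, mir-11 and mir-8. mir-263a and mir-1002 made up the 6. The pair in the other direction were mir-958, with a 3p share of 27.8% and 26.03% in stage 6 and 24.7% and 28.0% in stage 7, against 15.8% and 14.9% in stage 5, and mir-9b, with a 5p share of 42.9% and 55.2% in stage 6 and 44.4% and 62.5% in stage 7, against 41.4% and 31.2% in stage 5. Their edgeR adjusted p was 0.621 for mir-958 and 0.491 for mir-9b. Both rest on few counts. The mir-9b share came from 3 of 7 and 16 of 29 counts in stage 6, against 12 of 29 and 5 of 16 in stage 5. The mir-958 share came from 7 of 25 counts in stage 7 replicate 2 and 7 of 47 in stage 5 replicate 2. When stage 7 replicate 1 was left out, mir-263a (edgeR adjusted p 0.00436) and bantam (0.0475) were called with mir-14, 3 of 19 hairpins. The 3p arm of mir-263a had 1 and 5 counts in stage 6 and 9 and 0 counts in stage 7, against 6 and 6 counts in stage 5.

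The 6 most abundant arms were bantam-3p, miR-286-3p, miR-8-3p, miR-10-5p, miR-263a-5p and miR-184-3p, and none passed the test. bantam-3p, from 3L at 642208 to 642288, plus strand, had 138538 and 134359 CPM in stage 6 and 148748 and 100056 CPM in stage 7, against 113489 and 94941 CPM in stage 5. It was the top arm of 3 late libraries, at 17.9% to 20.4% of their counts. miR-8-3p had 112889 and 111808 CPM in stage 6 and 109139 and 83468 CPM in stage 7, against 94765 and 69225 CPM in stage 5. The 3 late libraries other than stage 7 replicate 2 lay above both stage 5 libraries for bantam-3p and miR-8-3p. The log2 fold change was 0.32 ± 0.282 for bantam-3p (95% interval -0.27 to 0.91) and 0.34 ± 0.323 for miR-8-3p (95% interval -0.33 to 1.02). miR-10-5p had 107699 and 74499 CPM in stage 6 and 79691 and 83572 CPM in stage 7, against 76860.1 and 56203 CPM in stage 5, a log2 fold change of 0.37 ± 0.253. The groups overlapped in miR-10-5p, and its partner miR-10-3p was above stage 5 in all late libraries at 11505 and 10389.6 CPM in stage 6 and 11940.0 and 10553 CPM in stage 7, against 8776 and 6859 CPM in stage 5 (log2 fold change 0.51 ± 0.335).

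miR-263a-5p, which protects sensory bristles by repressing hid, had 61894 and 61890.1 CPM in stage 6 and 65519 and 102438 CPM in stage 7, against 72594 and 64474 CPM in stage 5. Its interval of -0.45 to 0.60 on the log2 scale excludes a 2-fold change, although the sign depends on the scaling and turns to -0.12 with library size only and to -0.16 without stage 7 replicate 2. miR-184-3p, a germline and embryonic patterning miRNA, had 55407 and 45583 CPM in stage 6 and 41519 and 36024 CPM in stage 7, against 30837 and 40888 CPM in stage 5. The groups overlapped through stage 7 replicate 2, and the log2 fold change was 0.30 ± 0.268. The abundant miR-31a-5p was in the other direction at 19377 and 19455 CPM in stage 6 and 20845 and 22000.1 CPM in stage 7, against 23454 and 24815 CPM in stage 5. Each late library was below stage 5 by a small margin, with a log2 fold change of -0.24 ± 0.339, and its near relative miR-31b-5p was above at 1600.3 and 1066 CPM in stage 6 and 905 and 958 CPM in stage 7, against 619 and 512 CPM in stage 5 (log2 fold change 0.97 ± 0.491). How reads shared by such relatives were counted is unstated.

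The clusters of the early embryo differed mainly between stage 7 replicate 2 and the rest. The miR-309 cluster, which clears maternal mRNAs at the onset of zygotic transcription, held 11.3% and 14.2% in stage 6 and 10.3% and 24.9% in stage 7, against 18.4% and 21.9% in stage 5. Stage 7 replicate 2 was the highest of the 6 libraries and the other late libraries were all below stage 5. The exact two-sided permutation p of the group means was 0.4, where 0.133 is the smallest that 4 against 2 libraries allow. Of 7 tested arms 4 had a positive log2 fold change and 0 were called, with a median of 0.0096 against 0.19 over all arms. Without stage 7 replicate 2 the median was -0.61 against -0.039 over all arms.

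miR-286-3p, the most abundant member, lies on 2R at 19661422 to 19661521, minus strand. It had 76600.4 and 94813 CPM in stage 6 and 66776 and 193119 CPM in stage 7, against 121292 and 129727 CPM in stage 5. The log2 fold change was -0.25 ± 0.296 (edgeR adjusted p 0.811). Leaving out stage 7 replicate 2 gave -0.80 (edgeR adjusted p 0.134). In neither case was it called. Without stage 7 replicate 1, stage 7 against stage 6 called miR-286-3p higher in stage 7, with a log2 fold change of 1.15 ± 0.210 (edgeR adjusted p 0.0017), which rests on stage 7 replicate 2 alone. miR-5-5p of the same cluster had a log2 fold change of 0.0096 ± 0.339 (-0.45 without stage 7 replicate 2) and miR-6-3p 0.49 ± 0.343 (0.17 without it). The sign of miR-5-5p turned under several scalings.

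The miR-310 cluster held 0.212% and 0.301% in stage 6 and 0.211% and 0.553% in stage 7, against 0.369% and 0.514% in stage 5. miR-312-3p, its most abundant tested arm, had 1125 and 1686 CPM in stage 6 and 965 and 3548 CPM in stage 7, against 1923 and 2826 CPM in stage 5. Here too the other 3 late libraries were below both of stage 5 and stage 7 replicate 2 above. The log2 fold change was -0.41 ± 0.402 and -1.10 without stage 7 replicate 2 (edgeR adjusted p 0.134). miR-311-3p had a log2 fold change of 0.29 ± 0.413 (-0.039 without that library), and 2 of 5 tested arms were positive. In the miR-306/79/9 cluster, in introns of grp, miR-9c-5p followed the same order at 1903 and 2718 CPM in stage 6 and 2372 and 6138 CPM in stage 7, against 3780.0 and 3276 CPM in stage 5. Its log2 fold change was -0.17 ± 0.362, and -0.64 without stage 7 replicate 2, and the cluster had 2 positive and 2 negative arms of 4 tested.

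Arms that were low early and abundant late, a list drawn up from earlier results of these data and so no independent evidence of direction, held 2.93% and 2.18% in stage 6 and 4.39% and 0.9905% in stage 7, against 1.71% and 1.01% in stage 5. The share was highest in stage 7 replicate 1 and lowest of all 6 in stage 7 replicate 2 (exact two-sided permutation p 0.4). Of 9 tested arms 7 had a positive log2 fold change and 0 were called, with a median of 0.89 against 0.19 over all arms. miR-284-5p, a regulator of glutamate receptors at the neuromuscular junction hosted in the 3′ UTR of Octbeta2R, had 5277 and 1479 CPM in stage 6 and 6674 and 647 CPM in stage 7, against 1304 and 839 CPM in stage 5. Its log2 fold change was 1.70 ± 0.809 (edgeR adjusted p 0.483). It was 2.12 when stage 7 replicate 2 was left out (edgeR adjusted p 0.125). miR-956-3p, from 3L at 11773731 to 11773878, minus strand, had 9126 and 8343 CPM in stage 6 and 17297 and 1528 CPM in stage 7, against 5173 and 1003 CPM in stage 5. Both arms overlapped between the groups through stage 7 replicate 2 alone, and the stage 5 pair of miR-956-3p differed from each other. Its log2 fold change was 1.56 ± 0.908 (edgeR adjusted p 0.634) and 2.02 without stage 7 replicate 2. miR-277-3p, a regulator of branched-chain amino acid breakdown, overlapped between the groups at 1168 and 1720.1 CPM in stage 6 and 2302 and 1217 CPM in stage 7, against 1724 and 1269 CPM in stage 5. miR-927-5p, from an intron of mmd, was higher in all late libraries at 1817 and 619 CPM in stage 6 and 1266 and 997 CPM in stage 7, against 575 and 471 CPM in stage 5 (log2 fold change 1.14 ± 0.608, edgeR adjusted p 0.554).

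**Figure D4:**
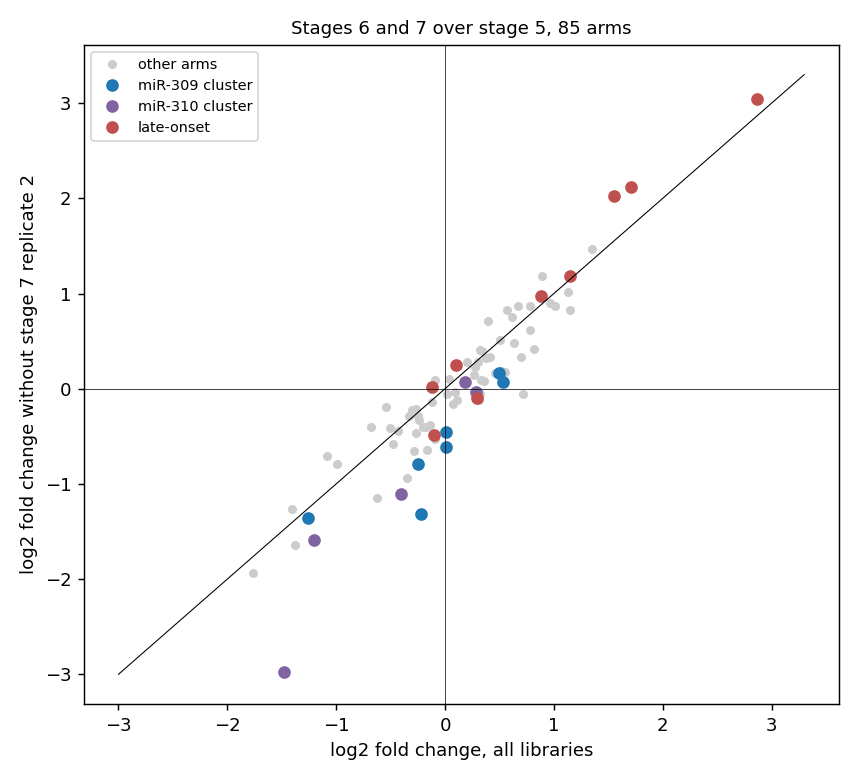
Log2 fold change of stages 6 and 7 against stage 5 for the tested arms, with all libraries (horizontal axis) against the fit without stage 7 replicate 2 (vertical axis), with arms of the miR-309 cluster, the miR-310 cluster and the late-onset list coloured. Arms of the early clusters fall below the diagonal, with list medians of 0.0096 against -0.61 and of -0.41 against -1.10, while the late-onset median is 0.89 against 0.98.

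Of the tissue lists, muscle, nerve, epithelium and sensory organ had 0 arms called in either direction. Among 2 muscle arms, miR-1-3p, needed for muscle growth, had a log2 fold change of -0.27 ± 0.637, and miR-133-3p, its partner in muscle, had 606 and 1221 CPM in stage 6 and 1025 and 1955 CPM in stage 7, against 531 and 921 CPM in stage 5 (log2 fold change 0.70 ± 0.508, and 0.33 without stage 7 replicate 2). The muscle groups overlapped for miR-133-3p. The nervous system list had 1 positive and 3 negative arms of 4, and held 2.11% and 2.43% in stage 6 and 1.78% and 3.203% in stage 7, against 3.55% and 3.12% in stage 5. Most of that share was miR-315-5p, with 1057 of 1156 counts in stage 5 replicate 1 and 1994 of 2115 in stage 7 replicate 2. Apart from miR-124-5p, miR-315-5p, an activator of Wingless signalling, had -0.28 ± 0.506 and miR-1000-5p 0.32 ± 0.625 on the log2 scale. Without stage 7 replicate 2 they had -0.65 and -0.11, and the sign of miR-1000-5p also turned when the miR-309 cluster was left out of the scaling.

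The epithelium and gut list had 6 positive and 4 negative arms of 10, median 0.27, and held 19.8% and 19.8% in stage 6 and 20.6% and 13.4% in stage 7, against 18.5% and 16.4% in stage 5. Stage 7 replicate 2 was the lowest of the 6 libraries, the other late libraries the highest. Beside miR-8-3p and miR-31a-5p, the list holds miR-281-2-5p, with a log2 fold change of 0.57 ± 0.444 and a near-identical copy. The sensory organ list had 4 positive and 3 negative arms of 7, and held 9.92% and 10.2% in stage 6 and 10.8% and 14.5% in stage 7, against 12.7% and 12.1% in stage 5. miR-279-3p, which suppresses the formation of CO2 sensing neurons, had 2292 and 3010.2 CPM in stage 6 and 2080.5 and 4389.6 CPM in stage 7, against 1348 and 1966 CPM in stage 5. It was higher in all late libraries, with a log2 fold change of 0.82 ± 0.431 (edgeR adjusted p 0.554), but 0.42 without stage 7 replicate 2, its highest library (adjusted p 0.7501). miR-9a-5p, which keeps sensory organ precursors in check, had -0.17 ± 0.317, and -0.41 without that library.

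Growth and metabolism arms, which include bantam and miR-14, were positive in 5 of 7, median 0.32. The Hox cluster list was positive in 3 of 4, median 0.35, with miR-993-3p at 0.33 ± 0.533 beside the mir-10 arms. The K-box seed family was positive in 4 of 8, median 0.087, with miR-2b-3p at -0.20 ± 0.344. Arms hosted in cell cycle genes were positive in 1 of 4, with miR-995-3p from an intron of Cdk2 at -0.10 ± 0.356 and miR-11-5p at -0.33 ± 0.415. In the miR-12 cluster, in introns of Gmap, miR-12-5p had 0.035 ± 0.468 and miR-283-5p -0.25 ± 0.3797. All these are log2 fold changes with their SE, and no member was called. When stage 7 replicate 2 was left out, miR-993-3p had 0.10, miR-2b-3p -0.41, miR-995-3p -0.52 and miR-12-5p 0.10. The all-arm share that was positive was 51 of 85.

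The lists of other sources were read from few counts, apart from mirtrons. The let-7 complex, which appears at metamorphosis, had no arm tested and 21 counts of 199536 in the late libraries, against 10 of 63868 in stage 5. miRNAs of ovary and follicle cells had 0 counts in either group, which allows up to 3 counts in the total of each. Those of testis clusters had 67 late and 34 stage 5 counts, with miR-982-5p the 1 tested arm at -0.47 ± 0.723 on the log2 scale. Mirtrons, made by splicing instead of Drosha, had 310 late and 104 stage 5 counts, with miR-1010-3p at 0.11 ± 0.4802, and -0.12 without stage 7 replicate 2.

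**Figure D5:**
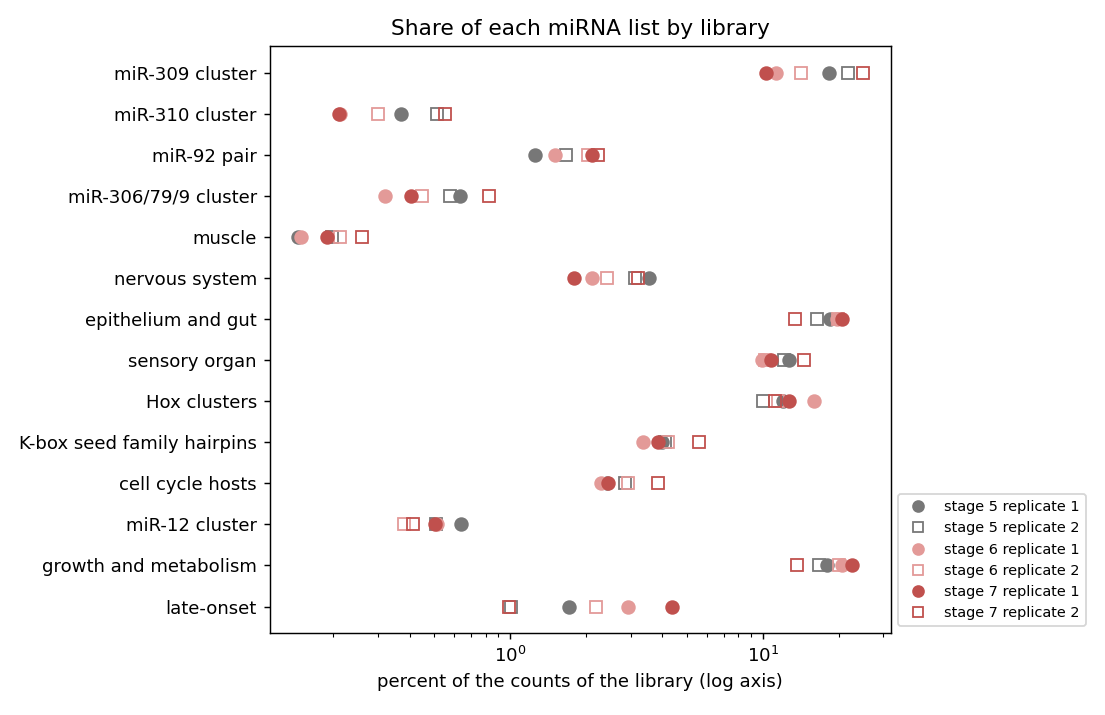
Percent of library counts held by 14 lists in each of the 6 libraries, on a log axis, with stages 6 and 7 in red and stage 5 in grey, and filled circles for replicate 1 and open squares for replicate 2. The 3 largest lists lie between 13.7% and 22.5% for growth and metabolism, between 13.4% and 20.6% for epithelium and gut and between 10.3% and 24.9% for the miR-309 cluster. Stage 7 replicate 2 is the lowest of the 6 libraries for growth and metabolism and for epithelium and gut, and the highest in the miR-309 cluster.

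Taken singly, the late stages gave the same count of calls. In stage 6 against stage 5, 0 of 85 arms were higher (0%) and 0 lower (0%), and 4 had an unadjusted p under 0.05 (edgeR). In stage 7 against stage 5 the counts were again 0 (0%) and 0 (0%), with 8 arms at an unadjusted p under 0.05. miR-957-3p had a log2 fold change of 3.09 ± 0.734 in stage 6 and 2.64 ± 0.719 in stage 7, both against stage 5. miR-14-3p had 0.98 ± 0.416 and 1.32 ± 0.417, and miR-14-5p -0.84 ± 0.579 and -1.98 ± 0.591, in the same order of stages. Both comparisons share the stage 5 libraries. The test between the late stages, stage 7 against stage 6, called 0 of 85 arms (0% higher, 0% lower), with 1 at an unadjusted p under 0.05. In each of these comparisons a share of about 0.05 of the 85 arms would be expected under that p with no change. miR-1002-5p differed within stage 6, at 4758 and 15516 CPM in stage 6 and 3106 and 5723 CPM in stage 7, against 4399 and 6490.4 CPM in stage 5, and its log2 fold change in the late step was 0.30 ± 0.459, and -0.049 without stage 7 replicate 2.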

How the data were processed

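Small RNA counts of mature miRNA arms were deposited for 14 libraries of embryos at 7 stages, 2 per stage, and the 466 arms were read as raw read counts, whole numbers made by the authors with no normalization. Per the submitters' processing notes, Bowtie, HTSeq and the dm6 build were used, without versions. Whether reads matching several loci or near-identical relatives (miR-92a and miR-92b, miR-31a and miR-31b, copies of miR-281) were counted is not given in the sources used here, so such arms are uncertain. PCR reads without molecular identifiers are not independent molecules, so intervals on counts cover counting error only.

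Groups came from the labelled stages and times. Replicates were numbered in accession order and were not paired. The members and lists were chosen with earlier results of these data known. Counts were analysed with edgeR 4.0.16 in R 4.3.3: filterByExpr by stage left 85 arms, holding at least 99.4% of each library, and a quasi-likelihood fit with TMM factors used all 14 libraries with 1 coefficient per stage and 7 residual degrees of freedom. The late step is the mean of stages 6 and 7 minus stage 5. Benjamini-Hochberg adjustment ran over all tested arms, with a threshold of 0.05. Unequal change of the arms of a hairpin was tested with diffSpliceDGE on the same fit. Both this and the comparisons with other steps were added after the data were seen. Shares of lists were compared with an exact permutation test over libraries, and shares of arms have exact binomial intervals at 95%. The code was tested on simulated data.

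Alternatives were DESeq2 1.42.0, other scalings and filters, the 6 libraries only, stages 6 and 7 as 1 group, and each library left out in turn. Named arms were those past the threshold, the 6 most abundant, and up to 3 per list by abundance. Arms outside that rule, named after their values were seen, are miR-14-5p, miR-8-5p (as the 5p share of mir-8), miR-190-5p, miR-957-3p, miR-970-3p, miR-998-5p, miR-31b-5p, miR-927-5p and miR-1002-5p, with the hairpins mir-958, mir-263a (its 3p arm) and mir-1002 and the rare arms of the closing observations. Also named outside that rule are miR-124-3p, miR-310-3p and miR-313-3p. Positions of hairpins are those of Ensembl's dm6 gene models with the same name. The plots were made in Python 3.11.15 with matplotlib 3.10.9.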

Additional observations from a re-analysis of the deposited data

Results flagged for a closer look

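Of 81 values examined over the 4 late libraries, 7 had 1 library far from the other 3, by Dixon's criterion at 95%. For independent, normally distributed values chance alone gives about 1 in 20. These values come from the same 4 libraries, and lists share counts with their arms, so an excess cannot be read from that rate.

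Stage 7 replicate 2 was the distant library in 4 of them. miR-8-3p had 83468 CPM there, against 109139 to 112889 CPM in the other late libraries. miR-263a-5p had 102438 CPM, against 61890.1 to 65519 CPM. miR-9a-5p had 16562 CPM, against 9516 to 10648 CPM. The epithelium and gut list held 13.4% of counts, against 19.8% to 20.6%. miR-8-3p and the list were lower, and miR-263a-5p and miR-9a-5p higher, than in the remaining late libraries.

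Stage 6 replicate 1, the shallowest library, was distant in 2 arms. miR-92a-3p had 130 CPM there, from 3 counts, against 427 to 452 CPM, and miR-982-5p had 389 CPM, from 9 counts, against 131 to 168 CPM. Stage 7 replicate 1 was distant for miR-998-5p, at 60.3 CPM against 86.0 to 90.6 CPM, but these are 6 counts against 2, 5 and 7 counts, so the gap is within counting error.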

How the results depend on the processing

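No paired analysis was possible because the labels carry no replicate numbers. The late step kept 0 lower arms under every alternative run, and its 0 higher arms became 1 with no filter, 2 in DESeq2 and 1 with stages 6 and 7 as 1 group; stage 6 against 5 and stage 7 against 5 became 1 higher each with no filter. Leaving out 1 library gave 0 to 1 higher arms in the late step, in stage 6 against 5 and in stage 7 against 6. miR-957-3p passed with no filter (edgeR adjusted p 0.0126), in DESeq2 (0.0349), with stages 6 and 7 as 1 group (0.0311) and without stage 7 replicate 2 (0.0132), and miR-14-3p in DESeq2 (0.0336). Over the 85 arms the log2 fold change had a median of -0.089 with the miR-309 cluster left out of the scaling, -0.0019 with library size only and 0.097 with DESeq2 size factors, against 0.19 with TMM. With DESeq2 size factors the log2 fold change of the late step turned to -0.0017 for miR-263a-5p and -0.10 for miR-5-5p. With library size only it turned to -0.12 for miR-263a-5p, -0.19 for miR-5-5p, -0.0019 for miR-311-5p, -0.13 for miR-12-5p, -0.052 for miR-277-3p and -0.087 for miR-1010-3p. With the miR-309 cluster left out of the scaling it turned to -0.23 for miR-263a-5p, -0.32 for miR-5-5p, -0.026 for miR-311-3p, -0.089 for miR-311-5p, -0.016 for miR-92a-3p, -0.0074 for miR-1000-5p, -0.23 for miR-12-5p, -0.16 for miR-277-3p, -0.19 for miR-1010-3p and -0.023 for miR-1002-5p. With no filter it turned to -0.0010 for miR-5-5p. With a mean count of at least 50 it turned to -0.062 for miR-263a-5p and -0.16 for miR-5-5p. In DESeq2 it turned to -0.0018 for miR-263a-5p and -0.10 for miR-5-5p. With the 6 libraries only it turned to -0.072 for miR-263a-5p, -0.16 for miR-5-5p, -0.091 for miR-12-5p, -0.019 for miR-277-3p and -0.048 for miR-1010-3p. Arms whose sign turned when 1 library was left out had ranges of -0.16 to 0.19 for miR-263a-5p, -0.15 to 0.52 for miR-184-3p, -0.45 to 0.25 for miR-5-5p, -1.001 to 4.06 for miR-311-5p, -0.32 to 0.54 for miR-92a-3p, -0.13 to 0.10 for miR-12-5p, -1.12 to 0.38 for miR-982-5p, -0.35 to 0.28 for miR-1010-3p, -0.27 to 0.60 for miR-1002-5p, -0.17 to 0.52 for miR-311-3p, -0.13 to 0.96 for miR-9b-5p, -0.16 to 0.56 for miR-1000-5p, -0.56 to 0.12 for miR-995-3p, -0.19 to 0.25 for miR-277-3p, -0.75 to 0.15 for miR-1-3p, -0.80 to 0.013 for miR-286-3p and -0.64 to 0.081 for miR-9c-5p. None of these arms was called with all libraries. Without 1 library, 0 to 3 hairpins were called for unequal arms, and the log2 change of the mir-14 ratio ran from -2.98 to -2.08, short of the threshold without stage 5 replicate 1; the cause was not tested. Fits without a library test other arms, since filterByExpr depends on the libraries, and assume that the lone library of a stage varies like the other stages. Total counts of 17462 to 72507 limit the precision for rare arms.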

Other observations

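Among arms too rare to test, 23 had at least 20 counts in the 6 libraries. Their ratios of late to stage 5 shares were read with exact binomial counting intervals, which leave out the spread between libraries. The intervals were not adjusted for the number of arms read. The interval lay above 1 for 2 arms. miR-971-3p had 22 counts of 199536 in the late libraries, against 1 of 63868 in stage 5, a ratio of 7.04 (1.14 to 291). miR-987-5p had 46 late counts, against 5 in stage 5, a ratio of 2.94 (1.17 to 9.50). Of those late counts 26 came from stage 7 replicate 1 and 3 from stage 7 replicate 2. The interval lay below 1 for miR-277-5p, with 12 late counts, against 10 in stage 5, a ratio of 0.384 (0.152 to 0.992). No arm with at least 20 counts in the late libraries or stage 5 was without a count in the other group.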
